A study of Mus musculus with 8 samples.

Results

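The SOCS family (suppressors of cytokine signalling) has 8 genes in the mouse, Socs1 to Socs7 and Cish, and each was found under its symbol on 1 row of the 54532 genes of the deposited table. All 8 were taken by name, not by their values. The study treated mouse bone marrow derived macrophages, phagocytes grown from marrow in culture, with PBS, a salt buffer, or with spermine, a polyamine that cells also make themselves. Macrophages of each kind were sequenced at 0 h and at 3 h of IFN-β, a type I interferon, so that each of 4 groups, named here by treatment and hour, holds 2 libraries. The series title names the kinase JAK1 as what spermine targets. No strain, sex, age, dose or length of spermine treatment is stated in what was at hand. The libraries of a group are numbered 1 and 2, with no word on whether they are separate animals or cultures, so every p-value below reflects only how far numbered libraries differ, which may be technical. No group spent 3 h without IFN-β, so a change from 0 h to 3 h cannot be told apart from an effect of those hours alone.

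SOCS proteins are brakes on cytokine receptors. A cytokine brings its receptor's JAK kinases together, these phosphorylate STAT transcription factors, and the STATs switch on genes that include SOCS genes, so the proteins close a feedback loop. Every member carries an SH2 domain, which binds phosphorylated tyrosine, and a SOCS box, which recruits elongins B and C and the cullin Cul5 to mark the bound protein for destruction. Socs1 and Socs3 can also block JAK kinases directly. In macrophages Socs1 is known for limiting interferon signals and Socs3 for limiting IL-6 signals.

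The results turned on Socs1, Socs3 and Cish, and the stretches near their starts are shown because that of Socs1 holds another motif for the factors of this pathway than the one shared by Socs3 and Cish. RefSeq promoters in GRCm38.p6, 250 bases before to 50 bases after the start, were at hand for 4 members, Socs1, Socs3, Socs4 and Cish. Both strands were searched for TTCNNNGAA (the GAS site of STAT dimers), the same site with the wider spacing preferred by STAT6, the core of the ISRE (the element bound by ISGF3 and other IRF factors), TGACNNNGC (the core of the antioxidant response element), TGANTCA (AP-1) and the NF-κB site. Capitals mark the matches, and each line reads 5′ to 3′ on the gene's own strand.
Socs1, chr16:10785567-10785656, minus strand: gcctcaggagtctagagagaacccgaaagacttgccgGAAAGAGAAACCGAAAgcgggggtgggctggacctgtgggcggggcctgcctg
Socs3, chr11:117969467-117969556, minus strand: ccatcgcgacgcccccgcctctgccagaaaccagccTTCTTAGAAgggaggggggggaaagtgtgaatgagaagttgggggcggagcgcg
Cish, chr9:107296659-107296683, plus strand: TTCCTGGAAagTTCTTGGAAatctg

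The Socs1 stretch held 2 overlapping ISRE cores, which begin 83 and 77 bases before the start. Of 32851 RefSeq promoters of the same length 3.44% held an ISRE core, and 38 (0.116%) held the joined form capitalised above, which was counted after the Socs1 stretch had been seen. The Socs3 stretch held 1 GAS site, beginning 154 bases before the RefSeq start. GENCODE M21 starts the Socs3 gene further upstream, so there the site lies inside the gene. Cish held 2 GAS sites, at bases 1 to 9 and 12 to 20 after the RefSeq start. GENCODE starts Cish further upstream too, so there the Cish sites lie further inside the gene. A GAS site was in 8.30% of promoters, the STAT6 spacing in 6.95%, the antioxidant core in 12.4%, the AP-1 site in 7.81% and the NF-κB site in 1.63%. The Socs4 promoter held none of the 6 motifs, and the windows of Socs1, Socs3 and Cish held no match to the others. A match is a string of letters and was not tested as a binding site.

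The libraries held between 15723437 and 17744844 reads, rebuilt from the deposited FPKM, a read level scaled to gene length and to library size. Levels are FPKM, and changes are log2 changes of FPKM + 1 from limma over 11421 genes, those that reached 1 FPKM in 2 or more libraries. Adding 1 understates changes of genes near or below 1 FPKM. A gene is said to have changed where its two-sided limma p, adjusted by the Benjamini-Hochberg method over those genes, is under 0.05. All 8 members passed this filter. Socs1, Cish and Socs2 passed only through libraries at 3 h, Socs2 only through those with PBS, so a rise with IFN-β was a condition of their being tested. The deposited scale holds the median gene steady. Rescaling to TPM moved the median gene by -0.46 (IFN-β in PBS), -0.33 (IFN-β in spermine), -0.34 (spermine, 0 h), -0.20 (spermine, 3 h) and 0.14 (the IFN-β response with spermine minus that with PBS). The share of changed genes that rose then went from 49.6% to 21.1% with IFN-β in PBS, from 47.1% to 21.5% with IFN-β in spermine, from 53.3% to 20.0% under spermine before IFN-β, from 49.2% to 26.7% under spermine after it, and from 42.9% to 67.1% in the contrast of responses. Quantile normalization gave 36.6% and 33.6% for the IFN-β comparisons in PBS and in spermine. All 8 macrophage markers were present in every group, with a summed level between 11204 and 13807 FPKM over the libraries. Of the markers of other cells, Cd3d, Cd3e, Cd3g, Ncr1, Ly6g and Mcpt8 were listed at 0 in every library. Cd4 lay between 2.58 and 4.16 FPKM over the libraries, and the neutrophil markers S100a8 and S100a9 between 1.65 and 4.44 and between 2.17 and 3.91.

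Resting macrophages held mostly Socs5, Socs4, Socs6 and Socs7. With PBS at 0 h the order by length-scaled level was Socs5 (31.0% of the summed family FPKM), Socs4 (27.1%), Socs6 (21.2%), Socs7 (14.9%), Socs3 (3.78%), then Socs2, Socs1 and Cish with under 1% each. In that order only the libraries of Socs2 and Socs1 overlapped. At 3 h of IFN-β in PBS Socs1 alone made up 80.3% and Socs3 7.65%. With spermine at 3 h Socs3 made up 45.8% and Socs1 39.3%, and these neighbours all but touched, with the lower Socs3 library and the upper Socs1 library both at 79.9 FPKM. At 0 h with spermine Socs3 and Socs7 overlapped, as did Socs1 and Socs2, and at 3 h Socs6 and Cish did. The summed family level was 22.6 and 23.0 FPKM with PBS at 0 h, 206 and 303 with PBS at 3 h, 31.2 and 32.6 with spermine at 0 h, and 176 and 199 with spermine at 3 h. Both 3 h groups thus lay far above both 0 h groups, and at 3 h both spermine libraries lay below both PBS libraries.

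**Figure D1:**
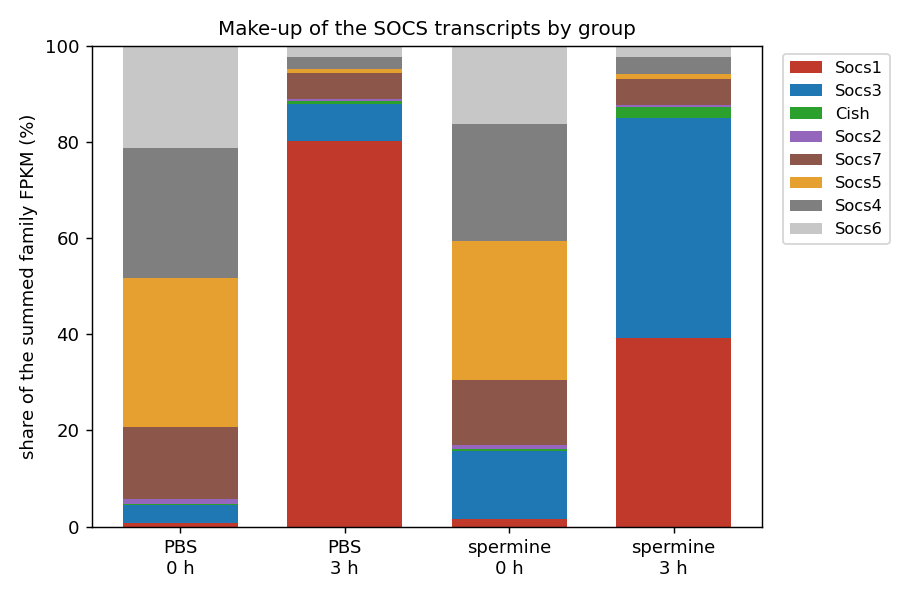
Stacked bars give the share of each SOCS gene in the summed family FPKM (percent, group means of 2 libraries) for the 4 groups. Socs5, Socs4 and Socs6 fill most of the bar at 0 h, Socs1 80.3% of it with PBS at 3 h, and Socs3 and Socs1 45.8% and 39.3% of it with spermine at 3 h.

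Did IFN-β raise the brakes, and did spermine alter that? With IFN-β in PBS 5 members rose (Socs1, Socs3, Socs7, Cish and Socs2), 1 fell (Socs5), and Socs4 and Socs6 did not pass, where 24.6% of all tested genes rose and 25.0% fell (49.6% together). With spermine the counts were again 5 rising and 1 falling, the same genes, where 19.7% of all genes rose and 22.1% fell (41.7% together). The median member changed by 1.05 in PBS and 0.81 with spermine, beside -0.02 and -0.01 over all genes. These counts and medians include Socs1, Cish and Socs2, for which a rise with IFN-β was a condition of being tested. Of the other members Socs3 and Socs7 rose, Socs5 fell, and Socs4 and Socs6 did not pass, in PBS as with spermine. Spermine against PBS at 0 h raised 3 members (Socs3, Socs5 and Socs7) and lowered 0, where 22.0% of all genes rose and 19.2% fell (41.2% together). At an unadjusted p under 0.05 limma lowered 0 as well, and so did limma voom. At 3 h spermine raised 2 members (Socs3 and Cish) and lowered 3 (Socs1, Socs7 and Socs6), where 19.9% of all genes rose and 20.6% fell (40.5% together). The IFN-β response was larger with spermine for 1 member (Cish) and smaller for 2 (Socs1 and Socs7), where 5.82% of all genes passed upward and 7.75% downward (13.6% together). The median member differed by 0.28 at 0 h and -0.12 at 3 h, beside 0.01 and -0.0028 over all genes. The comparisons share libraries (PBS 0 h serves the first and the third, for example), so they are not independent of each other. In bulk RNA, fewer cells that express a gene and less RNA per cell cannot be told apart.

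**Figure D2:**
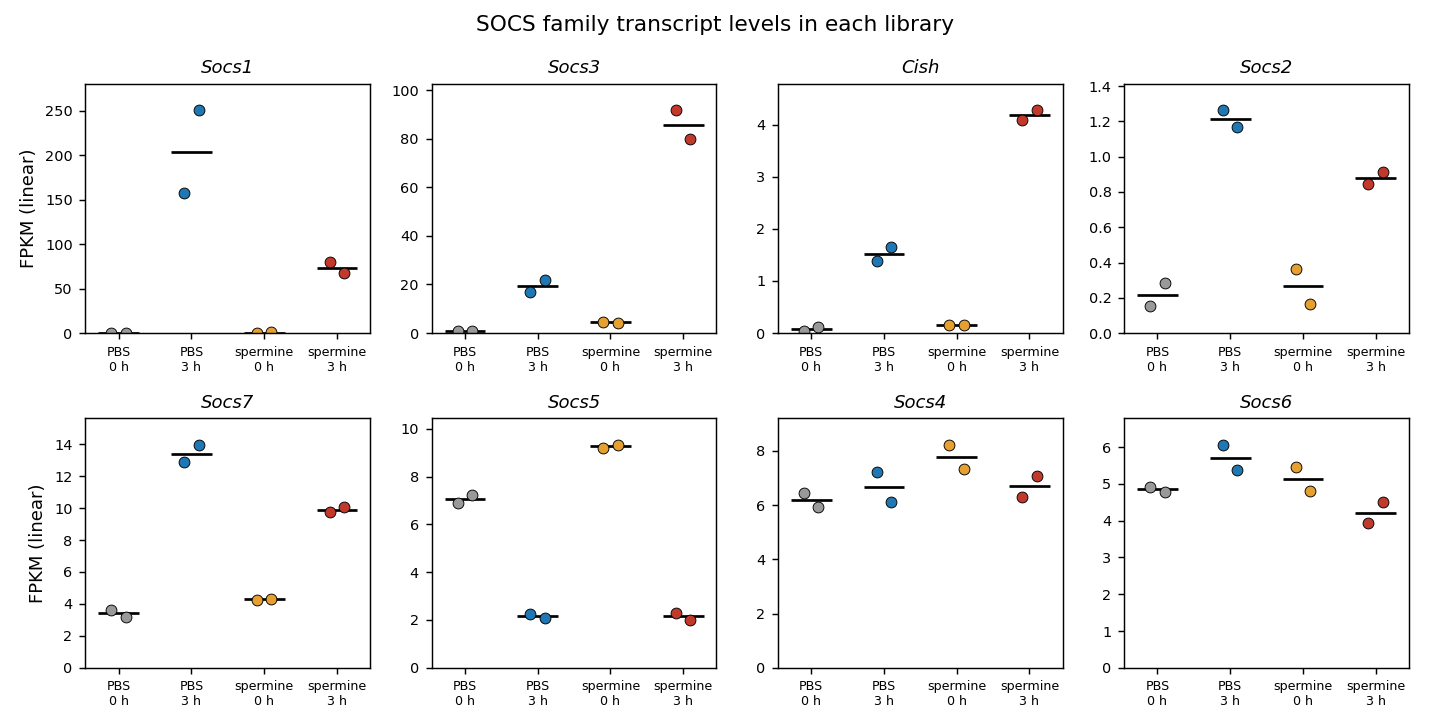
Each panel plots 1 SOCS gene, with FPKM on a linear axis from 0, a point for each library and a line at the mean of the 2 libraries of a group. Socs1 is highest with PBS at 3 h, Socs3 and Cish are highest with spermine at 3 h, and Socs5 is low in both 3 h groups.

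Socs1 (ENSMUSG00000038037, chromosome 16, 10782240 to 10785536, minus strand, in GRCm38), which binds and blocks JAK1, JAK2 and TYK2, went in PBS from nearly silent to the most abundant member. Its PBS 0 h libraries held 0.165 and 0.154 FPKM, from 11 and 9 reads, and its PBS 3 h libraries 158 and 251 FPKM, from 6403 and 11779 reads. With spermine it held 0.249 and 0.775 FPKM at 0 h, from 12 and 41 reads, and 79.9 and 67.6 FPKM at 3 h, from 3253 and 2914 reads. The 3 h libraries lay far above all 0 h libraries, and those with spermine lay below both of those with PBS. The rise with IFN-β was 7.43 ± 0.24 (SE) in PBS (limma adjusted p = 6.71e-07), rank 16 among the rises of all tested genes, and 5.64 ± 0.24 with spermine (adjusted p = 3.64e-06), rank 41. At 3 h the mean was 204 ± 65.7 FPKM (SD, n = 2) with PBS and 73.7 ± 8.69 with spermine, which is 2.77-fold lower with spermine (log2 change -1.42 ± 0.24, adjusted p = 0.00393). At 0 h the spermine libraries lay above those with PBS, but the change of 0.36 ± 0.24 did not pass (adjusted p = 0.276), and it was 0.11 without spermine 0 h replicate 2 and 0.61 without spermine 0 h replicate 1. The smaller rise with spermine was tested as a difference of the responses, which came to -1.79 (95% interval -2.60 to -0.97, adjusted p = 0.0197). That call was lost without a filter (adjusted p = 0.0597), with limma voom (-2.90, adjusted p = 0.13), when replicate 1 (-1.79) or 2 (-1.78) of PBS 0 h or replicate 1 (-1.90) or 2 (-1.67) of spermine 3 h was left out, and the value was below 0 in each of these fits. The difference is the 3 h change less the 0 h change, and the 0 h levels rest on 20 reads in PBS and 53 with spermine.

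Of the genes tested that have a RefSeq promoter, 20 hold the joined ISRE form, Socs1 among them. This form was picked after it had been seen in Socs1. IFN-β in PBS raised 18 of these 20 (median 2.35), beside 25.3% of the 8087 tested genes with a promoter (median -0.03). At 3 h spermine lowered 14 of the 20 and raised 1 (median -0.48, beside -0.01), where 20.6% of all tested genes were lower and 19.9% higher. At 0 h it lowered 9 and raised 1 (median -0.21), beside 19.2% and 22.0% of all tested genes, and the difference of the responses was lower for 5 and higher for 1 (median -0.27), beside 7.75% and 5.82%. The ISRE core that had been searched for was held by 339 tested genes, Socs1 again among them. IFN-β in PBS raised 179 of these (52.8%, median 0.35). At 3 h spermine lowered 130 of the 339 and raised 46 (median -0.20), and at 0 h it lowered 82 and raised 63 (median -0.04). Their difference of the responses was lower for 50 and higher for 18 (median -0.12). Socs1 had -1.42 at 3 h, and its 0.36 at 0 h did not pass. The GAS site found in Socs3 and Cish was held by 659 tested genes. Of these 30.3% rose with IFN-β in PBS (median 0.01), beside 25.3% of the 8087. At 3 h spermine raised 20.8% of the 659 (median -0.05), beside 20.5% of the 8087 (median -0.01). Whether any of these motifs had a part in the levels of Socs1, Socs3 or Cish was not tested.

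Socs3 (ENSMUSG00000053113, chromosome 11, 117966079 to 117970047, minus strand), which binds the gp130 subunit of the IL-6 receptor together with its JAKs, rose with IFN-β and with spermine. It held 0.816 and 0.910 FPKM with PBS at 0 h, 4.66 and 4.28 with spermine at 0 h, 17.1 and 21.8 with PBS at 3 h, and 91.7 and 79.9 with spermine at 3 h. No group overlapped another, and spermine was the higher at each time. The spermine change was 1.55 ± 0.13 at 0 h (limma adjusted p = 0.000167) and 2.09 ± 0.13 at 3 h (adjusted p = 5.43e-05), rank 182 and rank 78 among the rises of all genes. On plain FPKM the means with spermine were 5.18-fold those with PBS at 0 h and 4.41-fold at 3 h. The rise with IFN-β was 3.45 ± 0.13 in PBS (adjusted p = 1.11e-06) and 3.99 ± 0.13 with spermine (adjusted p = 7.53e-07). As plain ratios of the means these were 22.6-fold and 19.2-fold. The difference of the responses, 0.54 (95% interval 0.12 to 0.96), did not pass (adjusted p = 0.0958). Its sign turned with a pseudocount of 0.1 (-0.11) and with limma voom (-0.23), and it passed without PBS 3 h replicate 2 (0.71, adjusted p = 0.0327).

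Socs1 and Socs3 therefore changed places between PBS and spermine at 3 h. Per length, the ratio of Socs1 to Socs3 was 9.23 and 11.5 in the PBS 3 h libraries and 0.871 and 0.846 in the spermine 3 h libraries. At 0 h the ratio was 0.203 and 0.169 with PBS and 0.0535 and 0.181 with spermine, so the 0 h groups overlapped.

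Cish (ENSMUSG00000032578, chromosome 9, 107296026 to 107302784, plus strand), a STAT5 target that damps receptors such as those of IL-2 and GM-CSF, was scarce and was highest with spermine at 3 h. Its libraries held 0.0408 and 0.108 FPKM with PBS at 0 h (6 and 14 reads), 0.160 and 0.163 with spermine at 0 h (17 and 19 reads), 1.38 and 1.66 with PBS at 3 h (124 and 172 reads), and 4.08 and 4.28 with spermine at 3 h (367 and 407 reads). Each group lay apart from the next in that order. Spermine raised Cish at 3 h by 1.04 ± 0.11 (limma adjusted p = 0.000486), 2.75-fold on plain FPKM, while at 0 h the change of 0.11 ± 0.11 did not pass (adjusted p = 0.441). IFN-β raised it by 1.23 ± 0.11 in PBS (adjusted p = 9.09e-05) and 2.16 ± 0.11 with spermine (adjusted p = 8.12e-06). The difference of the responses was 0.93 (95% interval 0.57 to 1.29, adjusted p = 0.0121). It is smaller without the added 1. The plain ratios of the means were 20.4-fold in PBS and 25.9-fold with spermine, and the difference did not pass with a pseudocount of 0.1 (0.79, adjusted p = 0.251), with TPM (0.86, adjusted p = 0.0883) or with limma voom (0.19, adjusted p = 0.86). Leaving out replicate 2 of PBS 0 h (0.88) or replicate 2 of spermine 3 h (0.90) also ended the call. On the opposite strand of Cish lie the antisense gene Gm17041, listed at 0 in every library, and the pseudogene Gm17040, at no more than 0.117 FPKM, and the labels do not state whether strand was counted.

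Socs2 (ENSMUSG00000020027, chromosome 10, 95385362 to 95417180, minus strand), the brake on growth hormone signalling, rose with IFN-β to low levels. It held 0.151 and 0.281 FPKM with PBS at 0 h, 0.361 and 0.167 with spermine at 0 h, 1.26 and 1.17 with PBS at 3 h, and 0.846 and 0.913 with spermine at 3 h. The 0 h groups overlapped, and at 3 h both spermine libraries lay below both PBS libraries. Its rise was 0.87 ± 0.13 in PBS (limma adjusted p = 0.00136) and 0.58 ± 0.13 with spermine (adjusted p = 0.0118), the second lost without spermine 0 h replicate 2 (0.47) or spermine 3 h replicate 2 (0.55). Spermine against PBS did not pass at 3 h (-0.24, adjusted p = 0.189) or at 0 h (0.05, adjusted p = 0.773), nor did the difference of the responses (-0.29, 95% interval -0.73 to 0.15, adjusted p = 0.341). The whole gene had between 29 and 180 reads per library.

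**Figure D3:**
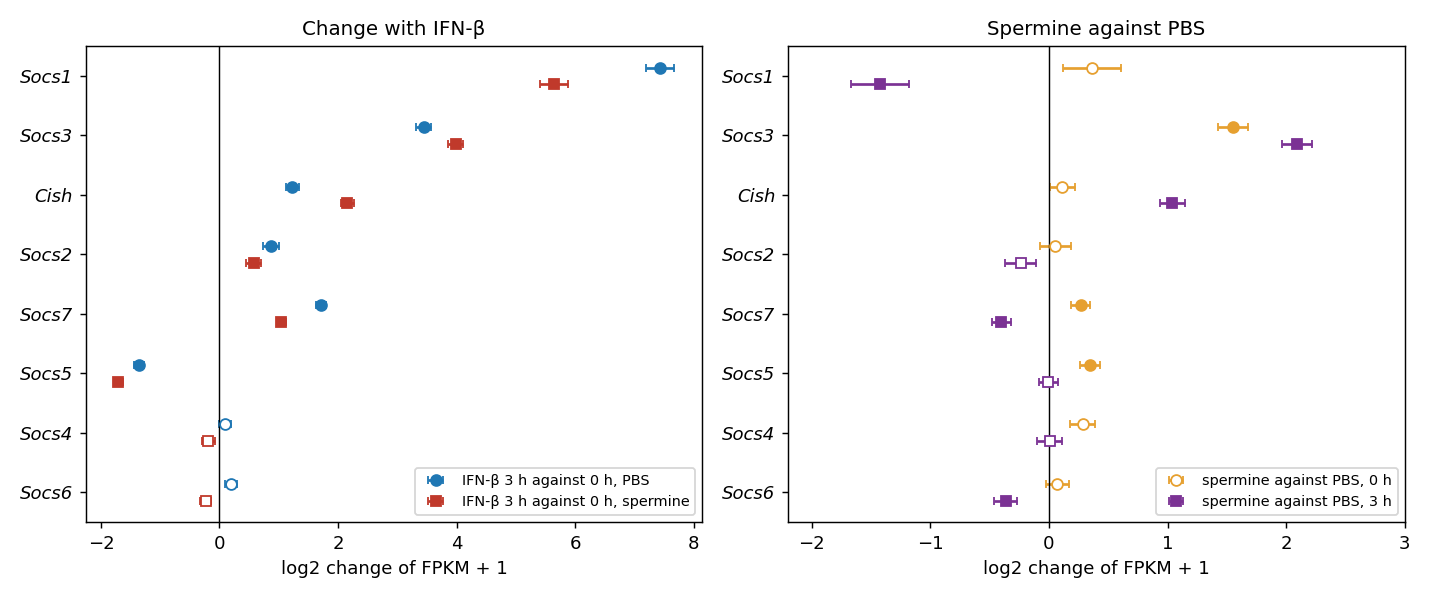
Points are log2 changes of FPKM + 1 with their SE for the 8 SOCS genes, IFN-β 3 h against 0 h at left and spermine against PBS at right, filled where the limma adjusted p is under 0.05. Socs1 rises most with IFN-β (7.43 in PBS, 5.64 with spermine), and at 3 h spermine moves Socs3 (2.09) and Cish (1.04) up and Socs1 (-1.42) down.

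Among the members with long N-terminal regions, Socs7 (ENSMUSG00000038485, chromosome 11, 97362551 to 97398542, plus strand), which can bind insulin signalling proteins, followed Socs1 in outline at a smaller scale. It held 3.61 and 3.19 FPKM with PBS at 0 h, 12.9 and 13.9 with PBS at 3 h, 4.27 and 4.32 with spermine at 0 h, and 9.74 and 10.1 with spermine at 3 h. No group overlapped another. It rose with IFN-β by 1.71 ± 0.08 in PBS (limma adjusted p = 3.66e-06) and by 1.04 ± 0.08 with spermine (adjusted p = 7.29e-05). The difference of the responses was -0.67 (95% interval -0.94 to -0.40, adjusted p = 0.0131). This was the member whose difference passed on each of the 5 scales compared, including limma voom (-0.77, adjusted p = 0.00485), though not when PBS 0 h replicate 2 (-0.60), spermine 3 h replicate 1 (-0.65) or spermine 3 h replicate 2 (-0.69) was left out. Spermine lowered it at 3 h (-0.40 ± 0.08, adjusted p = 0.00729), which was lost without spermine 3 h replicate 1 (-0.38). The small rise at 0 h (0.27 ± 0.08, adjusted p = 0.0328) reversed with TPM (-0.0065) and was lost, among other fits, without any 1 of the 4 libraries compared (0.20 to 0.34).

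Socs5 (ENSMUSG00000037104, chromosome 17, 87107679 to 87137583, plus strand), linked to IL-4 and EGF receptor signalling, was the only member that fell with IFN-β on the deposited scale. It held 6.91 and 7.24 FPKM with PBS at 0 h, 9.21 and 9.31 with spermine at 0 h, 2.23 and 2.09 with PBS at 3 h, and 2.31 and 2.00 with spermine at 3 h. At 0 h spermine was the higher, and at 3 h the groups overlapped. The fall was by 1.35 ± 0.08 on the log2 scale in PBS (limma adjusted p = 1.34e-05) and by 1.70 ± 0.08 with spermine (adjusted p = 6.19e-06), where it ranked 20 among the falls of all tested genes. On plain FPKM the level dropped 3.28-fold and 4.30-fold. The rise with spermine at 0 h (0.35 ± 0.08, adjusted p = 0.0137) was lost with TPM (0.04) and without any 1 of the 4 libraries compared (0.32 to 0.38). The difference of the IFN-β responses was -0.35 (95% interval -0.62 to -0.08, adjusted p = 0.0919).

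Socs4 (ENSMUSG00000048379, chromosome 14, 47276931 to 47296102, plus strand), related to Socs5 and also tied to EGF receptor turnover, passed in none of the 5 comparisons. Its 8 libraries lay between 5.95 and 8.21 FPKM, with means of 6.19 ± 0.340 (SD, n = 2) and 6.66 ± 0.804 in PBS at 0 h and 3 h, and 7.77 ± 0.626 and 6.70 ± 0.543 with spermine. The spermine difference at 0 h was 0.29 ± 0.11 (limma adjusted p = 0.0675) and passed with limma voom (0.32, adjusted p = 0.0332). With IFN-β in PBS the change was 0.09, and with TPM it was -0.36 and passed (adjusted p = 0.0311). With IFN-β in spermine it was -0.19 (adjusted p = 0.197), and TPM gave -0.52 (adjusted p = 0.00836). Socs6 (ENSMUSG00000056153, chromosome 18, 88665224 to 88927481, minus strand), which binds the receptor kinase Kit among others, lay between 3.92 and 6.05 FPKM. Its means were 4.85 ± 0.0896 and 5.71 ± 0.481 in PBS at 0 h and 3 h, and 5.14 ± 0.459 and 4.22 ± 0.420 with spermine. Spermine lowered it at 3 h (-0.36 ± 0.10, adjusted p = 0.0239), a call lost without a filter or with only the groups compared (-0.36 in each), without replicate 1 of PBS 3 h (-0.29) or replicate 1 of spermine 3 h (-0.28). With IFN-β in spermine it changed by -0.24 (adjusted p = 0.097), and TPM gave -0.58 (adjusted p = 0.0047). Both genes thus stayed within a narrow band of levels, and their direction with IFN-β in PBS depends on the scale.

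**Figure D4:**
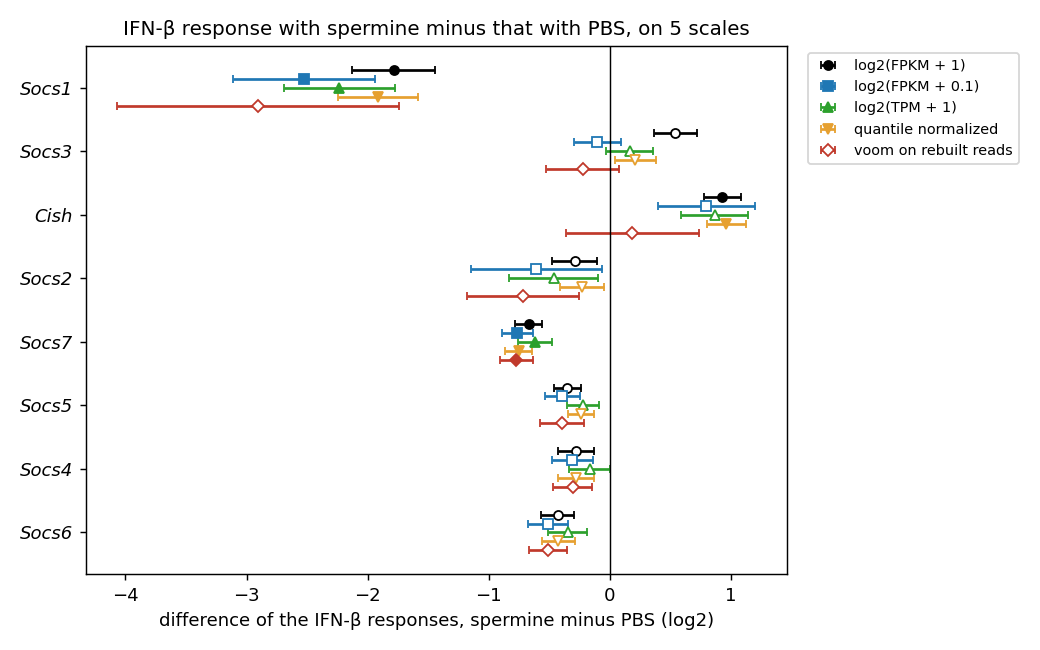
Points are the IFN-β response with spermine minus that with PBS (log2, with SE) for the 8 SOCS genes on 5 scales, filled where the adjusted p is under 0.05. Socs1 and Socs7 lie below 0 on each scale, Cish lies above 0 and shrinks to 0.19 with voom, and Socs3 lies on both sides of 0.

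The pathway around the brakes moved in several directions. Of 15 tested genes of the receptors, kinases and STATs, 11 rose and 4 fell with IFN-β in PBS (24.6% and 25.0% of all tested genes), and 9 rose and 2 fell with spermine (19.7% and 22.1%). With TPM rescaling 7 rose and 5 fell in PBS, where the calls of Tyk2 (0.26) and Stat5a (0.22) were lost and Ifnar2, a chain of the IFN-β receptor, turned from 0.18 (limma adjusted p = 0.0470) to -0.29 (adjusted p = 0.00638). Spermine raised 2 and lowered 7 of the 15 at 0 h (22.0% and 19.2% of all tested genes), and again 2 and 7 at 3 h (19.9% and 20.6%). With TPM it raised 0 at either time and lowered 11 and 9. At an unadjusted limma p under 0.05 TPM also gave 0 higher at either time. Among the proteins that Socs1 and Socs3 act on, Jak2 went from 11.6 and 11.1 FPKM to 84.1 and 69.5 with IFN-β in PBS (log2 change 2.65, limma adjusted p = 4e-06) and did not pass between spermine and PBS at 3 h (-0.26, adjusted p = 0.139). Jak1, whose calls with IFN-β in PBS (0.30) and with spermine at 0 h (0.27) turned with TPM (-0.17 and -0.07), had a spermine difference of 0.07 (adjusted p = 0.554) and Tyk2 one of -0.91 (adjusted p = 0.00209) at 3 h. Stat3, which carries IL-6 signals and can induce Socs3, was higher at 0 h (0.44, adjusted p = 0.00149, lost with TPM at 0.12) and did not pass at 3 h (0.11, adjusted p = 0.173). The STATs that serve Cish, Stat5a and Stat5b, were lower at 3 h with spermine (-0.49, adjusted p = 0.0126, and -0.35, adjusted p = 0.00487), where Cish was higher. Phosphorylated STAT protein was not measured, and whether these STATs had a part in the levels of Socs3 and Cish was not tested.

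Cytokines that signal through JAKs were mostly silent, with 8 of 20 tested. With IFN-β in PBS 5 rose and 0 fell, where 24.6% of all tested genes rose and 25.0% fell. With spermine the counts were the same, where 19.7% rose and 22.1% fell. In both, 0 fell at an unadjusted limma p under 0.05 or with limma voom. Il6 and Il27, at no more than 0.113 and 0.437 FPKM at 0 h, passed the filter only through libraries at 3 h. A rise with IFN-β was thus a condition of their being tested. Spermine raised 2 at 0 h, where 22.0% of all tested genes rose: oncostatin M (Osm) and Clcf1, relatives of IL-6 that act through gp130. At 3 h it raised 3 and lowered 2 (19.9% and 20.6% of all tested genes). Clcf1 held 0.247 to 0.350 FPKM with PBS and 2.17 to 2.99 with spermine. It passed the filter only through libraries with spermine, so a rise with spermine was a condition of its being tested. Osm held 7.53 and 7.82 FPKM with PBS at 0 h, 82.8 and 89.8 with spermine at 0 h, 30.9 and 34.4 with PBS at 3 h, and 197 and 192 with spermine at 3 h. Spermine was the higher at each time (3.33, limma adjusted p = 1.81e-06, and 2.54, adjusted p = 5.05e-06). Osm was higher with spermine at 0 h than with PBS at 3 h, and Socs3 was lower. Whether Osm had a part in the levels of Socs3 was not tested. Il6 held 5.40 and 3.37 FPKM with PBS at 3 h and 14.4 and 13.3 with spermine at 3 h (1.49, adjusted p = 0.00077), and at 0 h no library passed 0.113. Il10, which signals through STAT3, was lower with spermine at 3 h, at 5.78 and 5.56 FPKM (-1.26, adjusted p = 0.000788). Il27 was lower at 3 h with spermine too (-2.06, adjusted p = 1.29e-05).

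The list of receptors and docking proteins that SOCS proteins act on had 16 tested genes. With IFN-β in PBS 7 rose and 5 fell (5 and 7 with TPM), where 24.6% and 25.0% of all tested genes did. With IFN-β in spermine 8 rose and 4 fell (5 and 7 with TPM), where 19.7% and 22.1% of all tested genes did. Spermine raised 3 and lowered 6 at 0 h (22.0% and 19.2% of all tested genes), and again 3 and 6 at 3 h (19.9% and 20.6%). Met, raised at both times, held 0.725 to 0.969 FPKM with PBS and 1.30 to 4.03 with spermine. It passed the filter only through libraries with spermine, so a rise with spermine was a condition of its being tested. Il6st, which encodes gp130, the Socs3 target, fell with IFN-β, by 0.50 in PBS (limma adjusted p = 0.00121) and from 18.6 and 17.4 to 8.58 and 8.34 FPKM with spermine (adjusted p = 6.02e-05), and at 3 h it was lower with spermine (-0.45, adjusted p = 0.00338). Csf2rb, the GM-CSF receptor subunit that signals to STAT5, went up with IFN-β (log2 change 0.86 in PBS, adjusted p = 2.94e-05) and was lower with spermine at 3 h (-0.26, adjusted p = 0.0141). Csf2rb has a close paralog, Csf2rb2, and how reads shared between such copies were counted is not stated, so its values are uncertain. Irs2, an insulin receptor docking protein, showed the largest spermine rise of the list at 3 h (2.66, adjusted p = 1.44e-05).

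The other brakes of the pathway were compared with the SOCS genes. Of 12 tested, 4 rose and 5 fell with IFN-β in PBS (3 and 7 with TPM), where 24.6% and 25.0% of all tested genes did. With IFN-β in spermine 4 rose and 5 fell (4 and 7 with TPM), where 19.7% and 22.1% of all tested genes did. Spermine raised 4 and lowered 4 at 0 h (22.0% and 19.2%) and raised 2 and lowered 4 at 3 h (19.9% and 20.6%). Usp18, which mutes the IFN-β receptor, rose by 6.92 in PBS (limma adjusted p = 1.2e-08) and by 6.83 with spermine (adjusted p = 1.56e-08), and its difference of responses did not pass (-0.09, adjusted p = 0.53). At 3 h it was lower with spermine (-0.67, adjusted p = 0.000313). It was lower at 0 h too, with 1.45 and 1.38 FPKM in spermine beside 2.71 and 2.51 in PBS. The phosphatase Ptpn1 was higher with spermine at 0 h and 3 h (1.39, adjusted p = 8.36e-05, and 1.08, adjusted p = 0.000271), and the phosphatase Ptpn6 was lower (-1.76, adjusted p = 8.5e-06, and -0.97, adjusted p = 8.03e-05). The brakes therefore did not move as a block with spermine: Socs3, Cish and Ptpn1 were higher at 3 h, and Socs1, Usp18 and Ptpn6 lower.

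All 8 listed ubiquitin ligase parts of the SOCS box were tested. Of these elongins, cullins and partners, 1 rose and 2 fell with IFN-β in PBS (24.6% and 25.0% of all tested genes), and 1 and 2 with spermine (19.7% and 22.1%). With TPM rescaling or quantile normalization 1 rose and 4 fell in PBS. With spermine 0 rose and 5 fell with TPM, 0 and 4 with quantile normalization, with 0 rising at an unadjusted limma p under 0.05 in both, and Elob, which rose on the deposited scale (0.31), turned to -0.020 and -0.067. Spermine raised 5 and lowered 0 at 0 h (22.0% and 19.2% of all tested genes), and raised 3 and lowered 0 at 3 h (19.9% and 20.6%). At an unadjusted limma p under 0.05 the lowered were 0 and 1, and limma voom called 0 and 1 lower. With TPM rescaling, or without PBS 0 h replicate 2, 3 were called at 0 h in place of 5, and without spermine 3 h replicate 1 or 2 only 1 at 3 h in place of 3. Cul5, the scaffold of the SOCS ligase, held between 3.16 and 5.15 FPKM and passed in none of the 5 comparisons. Arih2, a ligase that works with Cul5, was higher with spermine at 0 h (0.80, limma adjusted p = 0.000237) and at 3 h (0.74, adjusted p = 0.000363). Of 27 other SOCS box proteins 14 were tested. With IFN-β in PBS 4 rose and 4 fell (2 and 9 with TPM), where 24.6% and 25.0% of all tested genes did. Asb13, an ankyrin repeat protein, rose from 1.52 and 1.51 FPKM to 18.0 and 18.4 in PBS (2.93, adjusted p = 2.27e-07) and reached 4.83 and 4.80 with spermine, lower than PBS at 3 h (-1.72, adjusted p = 1.62e-05). At 0 h it was lower with spermine too, at 0.795 and 0.662 FPKM (-0.54, adjusted p = 0.00162). Wsb1, a WD repeat protein, was higher with spermine at 3 h (1.45, adjusted p = 8.48e-05).

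Likeness in pattern was measured as Pearson's r over the 8 libraries of log2(FPKM + 1), among 2725 protein-coding genes whose group means span at least 1. The points are 4 groups of 2 libraries, so a high r mostly says that 2 genes order the groups alike. The 3 genes most like Socs1 were Mgat1 (r = 0.999), Psme2b (0.999) and Rab3ip (0.998). For Socs3 they were Got1 (0.996), Tma16 (0.996) and Hk2 (0.995), and for Cish they included Plekho2 (0.997) and Sphk1 (0.992). Slc4a11, Max and Mid1 were most like Socs7 (each 0.997), and Ranbp10 (0.994), Ago3 (0.992) and Rcor1 (0.991) most like Socs5. Socs2, Socs4 and Socs6 spanned less than 1 between group means and were not compared. The named genes nearest to Socs3 and to Cish, as these members do, had their highest mean with spermine at 3 h: Hk2, which encodes hexokinase 2, held 17.3, 32.8, 22.2 and 52.5 FPKM as group means with PBS at 0 h and at 3 h and then with spermine at 0 h and at 3 h. The nearest genes of Socs1 and Socs7 had theirs with PBS at 3 h, such as Mgat1 with 20.7, 120, 23.4 and 85.8 FPKM in the same order.

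Among the markers of other cells, Xcr1, 1 of the 5 of dendritic cells, had its group means in the order of those of Socs3 and Cish. The summed level of the 5 genes was 0.336 to 0.380 FPKM with PBS at 0 h, 1.19 to 1.29 with spermine at 0 h, 3.22 to 4.50 with PBS at 3 h and 5.68 to 6.54 with spermine at 3 h. Xcr1 led the sum in the last 3 of these groups, with 0.118 and 0.0891 FPKM in PBS and 1.11 and 1.05 with spermine at 0 h, and 4.34 and 2.97 in PBS and 6.41 and 5.53 with spermine at 3 h. Siglech led it with PBS at 0 h (0.155 and 0.205) and was lower there with spermine (0.0357 and 0.0975), while the defining markers Flt3 and Zbtb46 stayed at or below 0.0424 and 0.0323 FPKM in every library. Cd4, listed as a T cell marker, had the same order of group means, with 2.63 FPKM in PBS and 3.17 with spermine at 0 h, and 3.45 and 3.97 at 3 h. The part of Xcr1 or Cd4 in the results for Socs3 and Cish was not tested. The 5 mast cell and basophil markers summed to no more than 0.398 FPKM in any library, and 2 of them, Mcpt8 and Fcer1a, were listed at 0 in every library.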

How the data were processed

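The authors deposited 1 table of FPKM values for 8 libraries, with gene lengths and positions. The submitters' processing notes list these tools and builds, without their order: HISAT2 2.0.5 and featureCounts 1.5.0-p3; CASAVA 1.8 and fastp; GRCm38 (mm10). Multiplied by gene length, each deposited FPKM came out as a whole number of equal steps in its library (100.0% of values, tolerance 0.001), and reads were rebuilt from these steps. Titles gave the groups. Where series text and labels disagree on the control (DMSO or PBS), PBS is written. The extraction protocol speaks of blood although the samples are called macrophages.

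Log2(FPKM + 1) was fitted with limma 3.58.1 in R 4.3.3 as 4 group means over 8 libraries, with a trend, 4 residual and 2.83 prior degrees of freedom, for 5 comparisons, after the step had been tested on simulated data. Members and lists were chosen with earlier results of these data known. Other genes are named where they are nearest in pattern, show the largest called rise or fall of a list, or belong to a short fixed list of pathway genes; Clcf1 and Cul5 were named after their values were seen. Alternatives were a pseudocount of 0.1, no filter, a filter at 5 FPKM, TPM, quantile normalization, no trend, only the groups compared, a replicate block, limma voom on rebuilt reads and leaving out each library. pandas 2.3.3 and scipy 1.17.1 made the tables and matplotlib 3.10.9 the figures. Protein sequences were not used here. Results for some genes of the lists are not reported here.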

Additional observations from a re-analysis of the deposited data

Results flagged for a closer look

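For 3 SOCS genes the test of the difference itself found that the IFN-β response with spermine was unlike that with PBS. The difference, spermine minus PBS on the log2 scale of FPKM + 1, was -1.79 for Socs1 (limma adjusted p = 0.0197), -0.67 for Socs7 (adjusted p = 0.0131) and 0.93 for Cish (adjusted p = 0.0121). Of all tested genes 13.6% passed in this comparison. Each of the 3 calls is lost in some fit that leaves out 1 library. That of Socs1 is also lost without a filter (adjusted p = 0.0597) and with limma voom (-2.90, adjusted p = 0.130), and that of Cish with a smaller pseudocount (adjusted p = 0.251), with TPM rescaling (adjusted p = 0.0883) and with limma voom (0.19, adjusted p = 0.860).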

How the results depend on the processing

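The number of members that changed with IFN-β was 6 in PBS in each fit that left out 1 library, and between 5 and 6 with spermine. For spermine at 0 h the count of 3 became 1 with TPM rescaling and lay between 1 and 3 when 1 library was left out, for spermine at 3 h the count of 5 lay between 3 and 5, and for the difference of the responses the count of 3 became 1 with limma voom and lay between 0 and 4. With TPM rescaling the sign turned for Socs4 and Socs6 with IFN-β in PBS (-0.36 and -0.23), for Socs2, Socs4, Socs6 and Socs7 with spermine at 0 h (-0.030, -0.019, -0.25 and -0.0065) and for Socs4 with spermine at 3 h (-0.19). TPM values are larger than the deposited FPKM, so the added 1 weighs less there. Quantile normalization turned Socs4 (-0.0031) and Socs5 (0.075) with spermine at 3 h, and the Socs3 difference of responses turned with the pseudocount of 0.1 (-0.11) and with voom (-0.23). Leaving out 1 library turned the sign of Socs4 with IFN-β in PBS (range -0.018 to 0.20), of Socs2 (-0.057 to 0.16) and Socs6 (-0.0068 to 0.15) with spermine at 0 h, and of Socs4 (-0.10 to 0.12) and Socs5 (-0.077 to 0.066) with spermine at 3 h. Of these values only that of Socs7 at 0 h had passed on the deposited scale, and the cause was not tested. With a filter at 5 FPKM Cish and Socs2 were not tested.

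The replicate numbers in the titles are not said to mark an animal or a day. Deviations of libraries with the same number correlated over genes between -0.126 and 0.371 for the 6 pairs of groups. With the number as a replicate block no count of members changed (6, 6, 3, 5 and 3), and 5956, 5033, 4996, 4978 and 1813 genes were called in place of 5661, 4768, 4706, 4626 and 1550. Voom on rebuilt reads called 5944, 4937, 5279, 4826 and 1538. Leaving out 1 library brought these down to 2999 for spermine at 0 h (without PBS 0 h replicate 2), 2912 at 3 h (without spermine 3 h replicate 1) and 520 for the difference (without PBS 0 h replicate 2). Without 1 library the calls among other listed genes moved by over 1.5 times for the receptors, kinases and STATs with spermine at 3 h (5 in place of 9, without spermine 3 h replicate 2), the other brakes at 0 h (5 in place of 8, without PBS 0 h replicate 1), the cytokines at 0 h (4 in place of 2, without spermine 0 h replicate 1) and the ligase parts at 3 h (5 in place of 3, without PBS 3 h replicate 2). Depth limits Cish and Socs1 at 0 h most, at 20 reads per group in PBS.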
